A study of Mus musculus with 28 samples.

Results

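Gene expression was compared between the tumors of 5 mice given cisplatin together with immune checkpoint blockade (cisplatin+ICB) and the tumors of 4 mice given phosphate-buffered saline (PBS). These 9 tumors were chosen by the treatment in their labels and belong to 28 tumors in which 5-FU, cisplatin and ICB were given alone or in combination. All genes that passed a filter on low counts were compared, which left 17819 of the 55341 gene names in the table. The mice were female BALB/c animals (BALB/c.AusBP in the labels), 8 to 10 weeks old, and each tumor came from its own mouse. They carried AB1-HA, a mouse mesothelioma line that expresses influenza hemagglutinin, under the skin of the flank, so the host immune system was intact and the tumor cells came from 1 line. Treatment began when the tumor measured 20 to 25 mm2. Cisplatin was injected into the peritoneum at 6 mg/kg. The ICB was 1 dose of 100 µg anti-CTLA-4 with 3 doses of 100 µg anti-PD-L1, and whole tumors were taken on day 7 of treatment. PBS mice had neither cisplatin nor antibody, so what each agent contributed to a difference from PBS cannot be told apart in this comparison.

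Cisplatin crosslinks DNA, and cells that meet such damage activate p53, halt the cell cycle or die. CTLA-4 and PD-L1 restrain T cells, the first at priming and the second at the contact between a T cell and its target, and antibodies against them release that restraint. Activated T cells and NK cells kill through perforin and granzymes and secrete interferon gamma. Interferon gamma acts on tumor and host cells, where it raises antigen presentation, guanylate-binding proteins, the T cell attracting chemokines Cxcl9 and Cxcl10, and PD-L1 itself.

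The PBS tumors had 26836269 to 31291619 counts and the cisplatin+ICB tumors 27570127 to 29960859. One treated library stood apart in many measures. In cisplatin+ICB tumor 1, genes for cytosolic ribosomal proteins took 15.36% of the counts, against 3.939% to 4.688% in the other 4 tumors of its group and 5.537% to 9.344% in the PBS tumors. Mitochondrially encoded genes took 1.03% there, against 3.227% to 3.988% in the other 4 and 1.535% to 2.367% in PBS. Its counts came from genes with a geometric mean transcript length of 1014 bases, by the median annotated transcript of each gene, while the other 4 had 1277 to 1314 bases and the PBS tumors 1126 to 1277. Its correlation with the other tumors of its group was 0.813 to 0.843 across genes, whereas the other 4 correlated at 0.964 to 0.985 among themselves. It correlated best with PBS tumor 2, at 0.955. In PBS tumor 1 the gene CT010467.1 took 5.951% of the counts, against 0.04596% to 0.1984% in the other PBS tumors and 0.04837% to 0.4151% in cisplatin+ICB. Counts over gene lists are therefore given with all 5 tumors and without tumor 1, and values of single genes are with all 5 unless stated otherwise. The 90 genes named here that were called with all tumors were all called in the same direction without tumor 1, and their log2 fold changes differed by at most 0.56 between the fits.

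**Figure D1:**
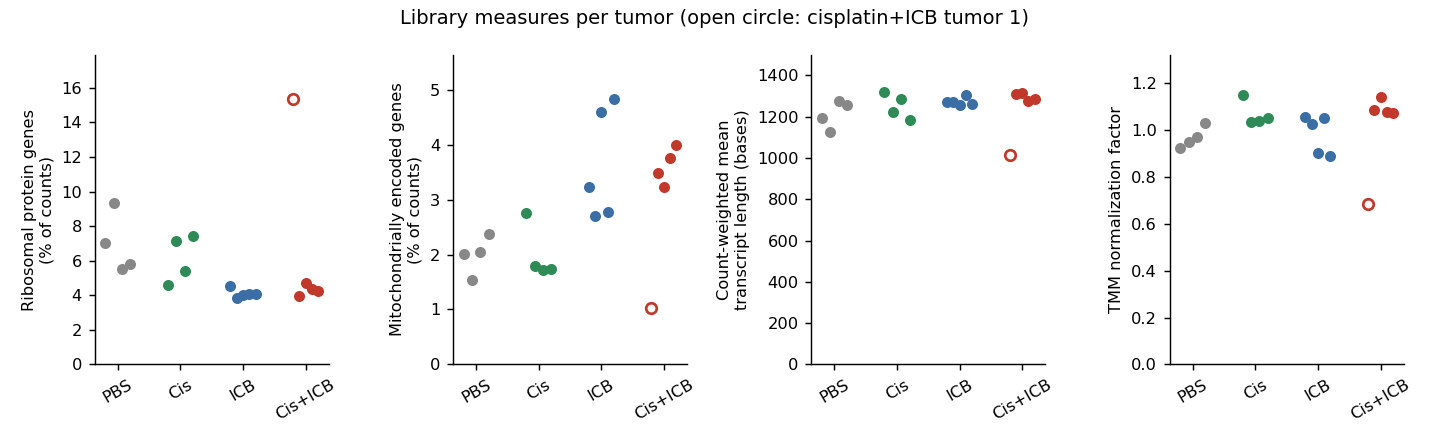
Each point is 1 tumor of the PBS, cisplatin (Cis), ICB or cisplatin+ICB (Cis+ICB) group, and the panels give, from left to right, the percent of counts from ribosomal protein genes, the percent from mitochondrially encoded genes, the count-weighted geometric mean transcript length in bases and the TMM normalization factor. The open circle, cisplatin+ICB tumor 1, lies outside every other tumor in each panel, at 15.36%, 1.03%, 1014 bases and 0.6826.

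A gene was called different when edgeR's quasi-likelihood test gave a Benjamini-Hochberg adjusted p under 0.05 and the log2 fold change exceeded 0.5 in size. With all tumors, 837 genes were called higher in cisplatin+ICB, 4.70% of those tested, and 250 were called lower, 1.40%. Without tumor 1, 3236 genes were called higher, 18.2% of 17772 tested, and 3041 were called lower, 17.1%. Of the 1087 genes called with all tumors, 1048 were also called without tumor 1, all 1048 in the same direction. The number of calls with all tumors depended on which tumors were kept. When PBS tumor 1, 3 or 4 was left out, edgeR called 0 genes, with smallest adjusted p of 0.0649, 0.0526 and 0.0572. At an unadjusted p under 0.05 there were 3308, 3435 and 3650 genes in these fits. Leaving out PBS tumor 2 gave 790 calls, and leaving out cisplatin+ICB tumor 2, 3, 4 or 5 gave 249, 1574, 266 and 361. In a model of these 9 tumors alone edgeR also called 0 (smallest adjusted p 0.0972, with 3022 genes at an unadjusted p under 0.05), or 5746 there without tumor 1. With tumor 1 already set aside, leaving out each other tumor in turn gave 2365 to 3327 genes called higher and 1873 to 3562 called lower. All 5 cisplatin+ICB tumors lay above all 4 PBS tumors at 634 genes, 3.56% of those tested, and below them at 789 genes, 4.43%. When tumor 1 was set aside, the other 4 lay above PBS at 2755 genes, 15.5%, and below at 4392 genes, 24.6%. Tumor 1 alone lay above all PBS tumors at 41.8% of the genes tested and below them at 41.3%. Among the genes called lower without it, tumor 1 itself lay above all PBS tumors at 2463 genes and below them at 353. Among those called higher without it, it lay above all PBS tumors at 847 genes and below them at 1600.

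**Figure D2:**
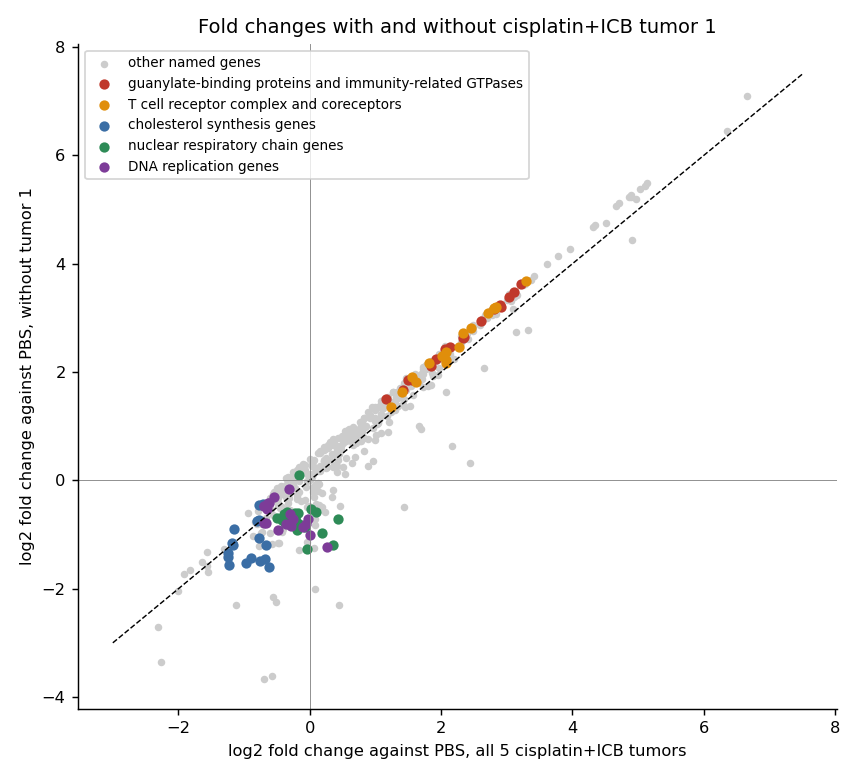
Log2 fold change against PBS for the listed and leading genes with all 5 cisplatin+ICB tumors (x axis) and without tumor 1 (y axis); colors mark 5 gene lists and the dashed line marks equal values. T cell receptor and guanylate-binding protein genes lie near the line, with list medians of 2.08 and 2.33 on the x axis and 2.37 and 2.63 on the y axis, while respiratory chain genes drop from a median of -0.20 to -0.72.

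T cell genes were higher in the combination, with tumors 2, 4 and 5 the highest for Cd8a. Of 17 genes for the T cell receptor complex and its coreceptors, 14 were called higher with all tumors and 17 without tumor 1, with a median log2 fold change of 2.08 and 2.37, when the median over all genes tested was 0.03 and 0.00. Tumor 1 lay below all PBS tumors at 9 of the 17 and above them at 7, and all 5 treated tumors lay above PBS at 1. Cd8a, the coreceptor chain of cytotoxic T cells (chr6:71373427-71379173, GRCm38), was measured at 3.96, 5.30, 5.71 and 5.85 counts per 1000000 counts of TMM-scaled library size (CPM) in PBS tumors 1 to 4. In cisplatin+ICB tumors 1 to 5 it was at 2.82, 56.5, 7.56, 79.1 and 109 CPM. Tumors 2, 4 and 5 were thus far above PBS, tumor 3 was just above the highest PBS tumor, and tumor 1 was below the lowest. The log2 fold change of Cd8a was 3.29 ± 0.80 (SE, adjusted p = 0.0268) with all tumors and 3.68 ± 0.63 (adjusted p = 0.00137) without tumor 1. Cd3e, a signalling chain of the receptor complex, was at 3.77 ± 0.656 CPM in PBS (SD, n = 4) and 24.9 ± 20.9 CPM in cisplatin+ICB (SD, n = 5), and rose by 2.72 ± 0.73 on the log2 scale. Cd28, the costimulatory receptor that CTLA-4 competes with, rose by 2.82 ± 0.71. Without tumor 1, leaving out any other tumor kept 16 or 17 of the 17 genes called higher. Cd4, the helper T cell coreceptor, had a log2 fold change of 1.55 ± 0.59 (adjusted p = 0.122) with all tumors and rose by 1.90 ± 0.50 without tumor 1. In bulk tissue, more cells of a type and more RNA per cell cannot be told apart.

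Genes of the killing machinery rose too. Of 11 cytotoxic effector genes, 8 were called higher with all tumors and 11 without tumor 1 (median log2 fold change 2.12 and 2.40), and at 5 of the 11 all 5 tumors lay above PBS. Tumor 1 lay above all PBS tumors at 7 of the 11, where it did so at 41.8% of all genes tested. Prf1, the pore-forming protein perforin, was at 11.1, 11.4, 8.01 and 11.2 CPM in PBS tumors 1 to 4. The cisplatin+ICB tumors had 24.5, 110, 20.7, 134 and 77.3 CPM, so the groups did not overlap. Its log2 fold change was 2.81 ± 0.47 (adjusted p = 0.0116). Ifng, which encodes interferon gamma (chr10:118441046-118445892), was at 0.202, 0.405, 0.395 and 0.364 CPM in PBS and at 0.851, 12.5, 0.916, 12.3 and 8.57 CPM in cisplatin+ICB. Every treated tumor was above every PBS tumor, yet tumors 1 and 3 were well below the other 3. The log2 fold change of Ifng was 4.34 ± 0.76 (adjusted p = 0.0116) and 4.71 ± 0.64 without tumor 1. Gzmb, the granzyme of armed cytotoxic cells, rose by 2.41 ± 0.45, from 16.7 ± 5.96 to 89.0 ± 55.0 CPM. Granzymes and the Klr receptors belong to families of similar sequence, so the assignment of reads among their members is uncertain.

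Some receptors of NK cells rose. Of 6 tested NK cell receptor genes, 3 were called higher with all tumors and 4 without tumor 1, with medians of 1.47 and 1.55. Klrk1, the activating receptor NKG2D that T cells also carry, rose by 1.63 ± 0.41 and Klrd1 (CD94) by 1.88 ± 0.47. Ncr1, an activating receptor more restricted to NK cells, had a log2 fold change of 0.41 ± 0.38 (adjusted p = 0.584), and its tumor values of 8.24 to 25.6 CPM overlapped the PBS values of 6.07 to 16.1 CPM. Of 8 genes in the axis of the gamma chain cytokines, which sustain T and NK cells, 4 were called higher and 6 without tumor 1 (medians 1.56 and 1.80). Il2rb, the receptor chain that IL-2 and IL-15 share, rose by 2.12 ± 0.60, and Il15ra by 1.54 ± 0.28, whereas Il15 (0.82 ± 0.37, adjusted p = 0.18) and Il7 (-0.17 ± 0.28, adjusted p = 0.813) did not pass.

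The targets of the antibodies and the other checkpoint genes were higher in part. Of 12 checkpoint receptors and ligands, 6 were called higher with all tumors and 10 without tumor 1 (medians 1.85 and 2.18). Cd274, which encodes PD-L1 (chr19:29367455-29388095), was at 9.77, 11.8, 13.4 and 12.7 CPM in PBS and at 16.9, 212, 36.5, 159 and 142 CPM in cisplatin+ICB. There was no overlap between the groups, and the rise was 3.25 ± 0.57 (adjusted p = 0.0116). Pdcd1lg2, the gene of PD-L2, rose by 3.96 ± 0.79 and Pdcd1, the gene of their receptor PD-1, by 3.11 ± 0.71. Havcr2 (TIM-3), a receptor of T cells and myeloid cells, rose by 1.70 ± 0.34. Lag3, another inhibitory receptor, had a log2 fold change of 1.84 ± 0.58 (adjusted p = 0.0632) with all tumors and rose by 2.21 ± 0.44 without tumor 1. Ctla4, the target of the other antibody, was at 2.34, 7.22, 2.84 and 2.31 CPM in PBS and at 12.2, 6.19, 4.79, 6.27 and 13.0 CPM in cisplatin+ICB. PBS tumor 2 overlapped the treated tumors, and Ctla4 did not pass with all tumors (1.20 ± 0.44, adjusted p = 0.106) or without tumor 1 (1.08 ± 0.47, adjusted p = 0.0741).

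Regulatory T cell and B cell genes gave few calls with all tumors. Of 6 regulatory T cell genes, 2 were called higher, and 5 without tumor 1 (medians 1.29 and 1.64). Foxp3, the defining transcription factor of regulatory T cells, was at 2.26, 1.45, 4.96 and 5.09 CPM in PBS and at 0.425, 6.45, 9.60, 7.45 and 12.3 CPM in cisplatin+ICB. Tumor 1 lay below and the other 4 above all PBS tumors, and Foxp3 did not pass with all tumors (1.08 ± 0.62, adjusted p = 0.313) but rose by 1.47 ± 0.42 without tumor 1. With the mean log2 transcript length of each library in the model (the length covariate), and tumor 1 left out, its log2 fold change was 0.91 (adjusted p = 0.117). Il2ra, the high-affinity IL-2 receptor chain of regulatory and activated T cells, rose by 1.59 ± 0.45. Of 8 B cell and plasma cell genes, 0 were called with all tumors by edgeR, 3 had an unadjusted p under 0.05, DESeq2 called 2 higher, and edgeR called 2 higher without tumor 1. Jchain, which joins secreted antibodies, was among the latter (3.15 ± 1.03, adjusted p = 0.0245), while Cd79a, part of the B cell receptor, had a log2 fold change of -0.64 ± 0.30 (adjusted p = 0.0929). Leaving out 1 more tumor besides tumor 1 gave 0 to 4 of these 8 called higher. The length covariate with tumor 1 left out gave 5, at a median of 3.12, where 13.8% of all genes were called higher.

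**Figure D3:**
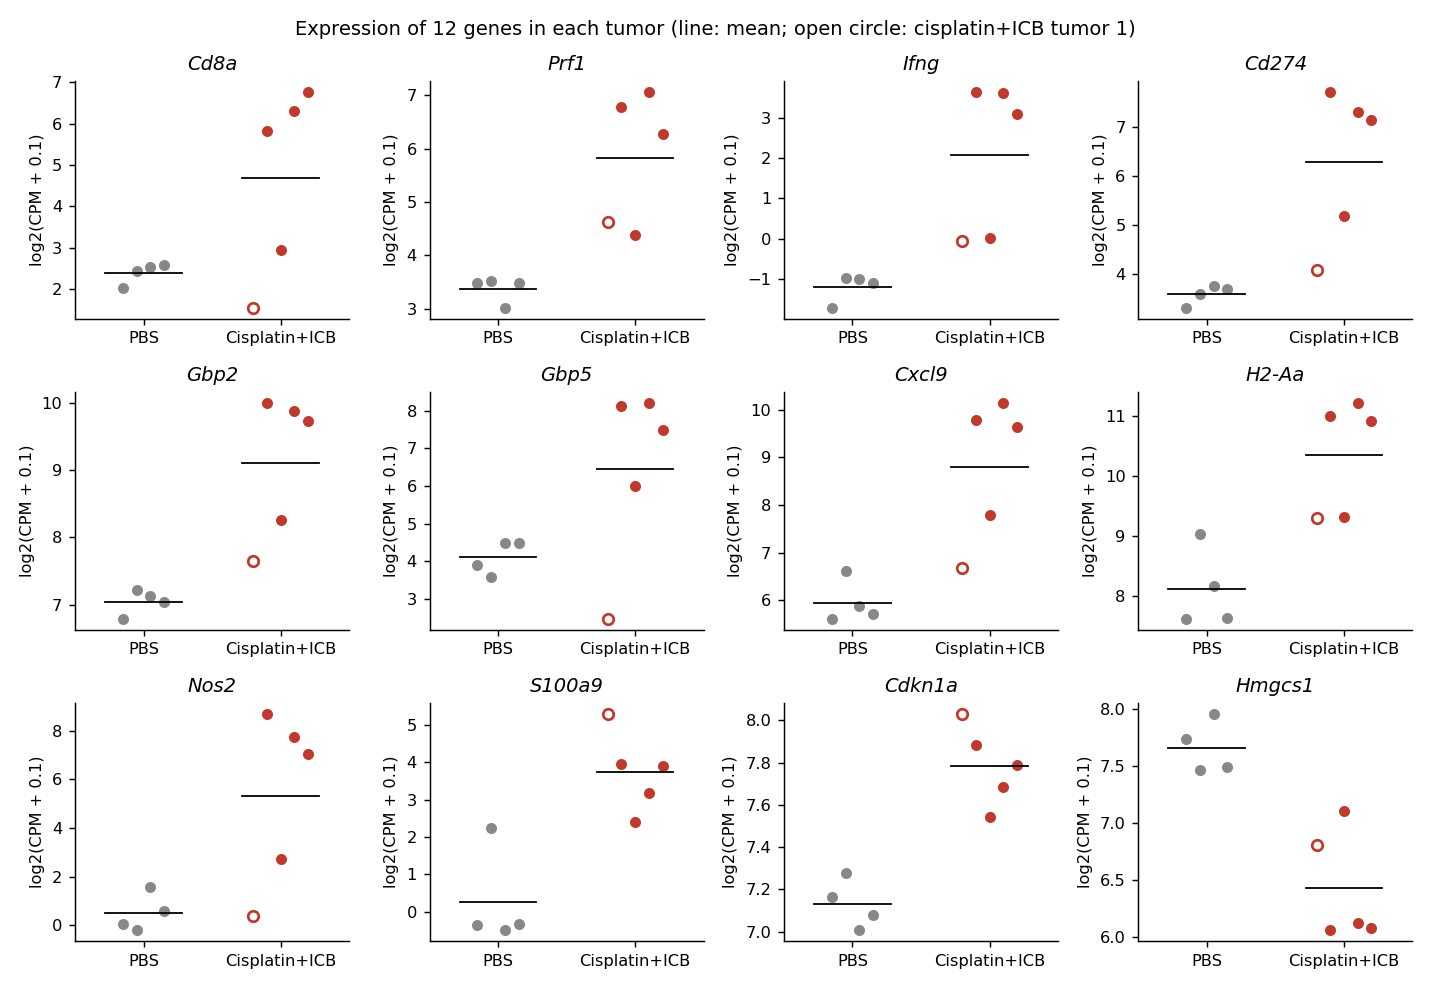
Expression of 12 genes on the scale log2(CPM + 0.1) in the 4 PBS and 5 cisplatin+ICB tumors, with 1 point per tumor, the group mean as a line and cisplatin+ICB tumor 1 as an open circle. Filled points of Cd8a, Ifng, Cd274, Gbp5 and Nos2 split into 3 high tumors and 1 lower one (tumor 3), and the open circle lies within or below the PBS points for Cd8a (2.82 CPM), Gbp5 (5.42 CPM) and Nos2 (1.22 CPM).

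Nearly all of the GTPases that interferon gamma induces were higher in the combination. Of 17 guanylate-binding proteins (GBPs) and immunity-related GTPases, which cells use against intracellular pathogens, 15 were called higher with all tumors and 17 without tumor 1. Their medians were 2.33 and 2.63. The 4 tumors other than tumor 1 lay above all PBS tumors at 17 of the 17 genes, whereas all 5 did so at 6. Without tumor 1, 17 of 17 were called higher whichever other tumor was also left out. Gbp2 (chr3:142620602-142638008) was at 110, 148, 140 and 131 CPM in PBS and at 200, 1026, 307, 945 and 848 CPM in cisplatin+ICB. Its groups did not overlap, and it rose by 2.33 ± 0.40 (adjusted p = 0.0116). Gbp5, which promotes inflammasome activity, was at 14.7, 11.9, 22.1 and 22.2 CPM in PBS and at 5.42, 277, 63.8, 295 and 181 CPM in cisplatin+ICB. Tumor 1 lay below all PBS tumors, and the log2 fold change was 3.21 ± 0.71 with it and 3.62 ± 0.42 without it. Among other members, Gbp10 rose by 3.03 ± 0.57, Tgtp1 by 2.61 ± 0.49 and Iigp1 by 1.84 ± 0.37. Gbp9 (1.5 ± 0.45, adjusted p = 0.0573) and Irgm1 (1.16 ± 0.41, adjusted p = 0.0976) missed the threshold by edgeR with all tumors and rose by 1.86 ± 0.26 and 1.51 ± 0.21 without tumor 1, while DESeq2 called 17 of the 17 genes with all tumors. Many of these genes lie in clusters of near-identical copies, so values of single members, Tgtp1 among them, are uncertain.

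Upstream of them, 7 of 12 genes of interferon gamma signalling were called higher with all tumors and 10 without tumor 1 (medians 1.25 and 1.47). Irf1, a transcription factor of the response, rose by 1.31 ± 0.29, and Batf2, a further factor of the response, by 1.97 ± 0.50. The transactivators of antigen presentation rose as well: Ciita, for class II, by 2.40 ± 0.53 and Nlrc5, for class I, by 1.72 ± 0.42. Ifngr2, a receptor chain, did not pass and changed sign with tumor 1, from 0.35 ± 0.37 to -0.17 ± 0.26.

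Promoters of these genes were read from RefSeq (GRCm38.p6) over the 250 bases before the start of transcription, to show 2 kinds of letters known from interferon-responsive promoters. Windows were searched on both strands for TTCNNNGAA, the core of the gamma-activated site (GAS), and for GAAANNGAAA, the core of the interferon-stimulated response element (ISRE). Of 27025 genes with such a window, 8.13% held the GAS letters and 3.46% the ISRE letters. A promoter was matched for 10 of the 17 GBP and immunity-related GTPase genes, of which 10 held the ISRE letters and 6 the GAS letters. Of 12 interferon gamma signalling genes 8 were matched, with ISRE letters in 1 and GAS letters in 3, and of 10 chemokine axis genes 5 were matched, with ISRE letters in 1. Of 20 type I interferon targets, none of them called with all tumors, 16 were matched, with ISRE letters in 8 and GAS letters in 3, and of 15 cell death genes 10 were matched, with GAS letters in 2. Such a match is a description of the sequence and not evidence of binding. The lines show the match in capitals with 20 bases on each side, for genes that were called higher, from chr11:53769904-53769952 (Irf1, plus strand), chr3:142620584-142620633 (Gbp2, plus), chr3:142496749-142496798 (Gbp5, plus), chr11:58199502-58199551 (Igtp, plus), chr5:92349073-92349122 (Cxcl10, minus) and chr19:34290546-34290594 (Fas, plus). The start of transcription is that of RefSeq, which can differ from the gene span printed for a member, as for Gbp2, whose match lies just inside that span. The Igtp window also holds a GAS match, which is not in capitals.
Irf1 GAS: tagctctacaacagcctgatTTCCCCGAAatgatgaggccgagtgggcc
Gbp2 ISRE: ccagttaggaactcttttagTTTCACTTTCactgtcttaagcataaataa
Gbp5 ISRE: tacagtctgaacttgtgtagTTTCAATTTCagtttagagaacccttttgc
Igtp ISRE: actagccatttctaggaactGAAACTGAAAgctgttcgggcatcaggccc
Cxcl10 ISRE: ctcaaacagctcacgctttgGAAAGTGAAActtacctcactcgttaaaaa
Fas GAS: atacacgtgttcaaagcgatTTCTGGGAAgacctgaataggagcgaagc

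Genes better known as targets of type I interferon were called only without tumor 1. Of 20 such genes, 0 were called with all tumors by edgeR and 0 by DESeq2, 2 had an unadjusted p under 0.05, and 8 were called higher without tumor 1 (medians 0.39 and 0.68). Leaving out 1 more tumor besides tumor 1 gave 5 to 11. Isg15, a ubiquitin-like antiviral protein, was at 38.3 ± 6.88 CPM in PBS and 48.8 ± 16.7 CPM in cisplatin+ICB (log2 fold change 0.35 ± 0.30, adjusted p = 0.566). Ifit1, which binds viral RNA, had a log2 fold change of 0.15 ± 0.28 (adjusted p = 0.839). Oas3, an enzyme that activates RNA decay, had 1.65 CPM in tumor 1 and 29.9 to 72.2 CPM in the other 4, against 5.36 to 36.9 CPM in PBS, and rose by 1.35 ± 0.42 without tumor 1.

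Genes of antigen presentation rose in the class II and class I lists. Of 9 tested class II genes, 7 were called higher with all tumors and 8 without tumor 1 (medians 1.97 and 2.07). H2-Aa, a chain of the class II molecule, was at 195, 524, 286 and 197 CPM in PBS and at 628, 2042, 634, 2378 and 1936 CPM in cisplatin+ICB. There was no overlap between the groups, and H2-Aa rose by 2.34 ± 0.55 (adjusted p = 0.0238). Cd74, the class II invariant chain, rose by 2.48 ± 0.66, with tumor 1 (385 CPM) inside the PBS range of 330 to 770 CPM. Of 14 class I genes, 3 were called higher with all tumors and 10 without tumor 1 (medians 0.72 and 0.84). Tap1, the peptide transporter, rose by 1.12 ± 0.26, and Psmb10, an immunoproteasome subunit, by 0.73 ± 0.20. H2-K1, a classical class I gene, had a log2 fold change of 0.68 ± 0.22 (adjusted p = 0.0755) and rose by 0.86 ± 0.21 without tumor 1. With the length covariate and all tumors, 8 of 9 class II and 10 of 14 class I genes were called higher, where 9.50% of all genes were. Without tumor 1 as well, 9 of 9 and 14 of 14 were, where 13.8% of all genes were. A difference between the lists was not tested.

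Chemokines that draw activated T cells rose as well. Of 10 chemokine axis genes, which include the CXCR3 and CXCR6 axes, 8 were called higher with all tumors and 10 without tumor 1 (medians 2.42 and 2.68). Cxcl9, a CXCR3 ligand (chr5:92321347-92328079), was at 48.5, 97.8, 58.7 and 52.1 CPM in PBS and at 102, 887, 220, 1129 and 793 CPM in cisplatin+ICB. The lowest treated tumor, tumor 1, was just above the highest PBS tumor, and the rise was 3.28 ± 0.60 (adjusted p = 0.012). Cxcl10, the other main ligand, whose promoter match is printed above, rose by 1.77 ± 0.48. The inflammatory chemokines Ccl5 and Ccl3 rose by 3.01 ± 0.63 and 3.78 ± 0.72. The receptors Cxcr3 (1.5 ± 0.60, adjusted p = 0.133) and Cxcr6 (2.26 ± 0.70, adjusted p = 0.0605) did not pass with all tumors and rose by 1.82 ± 0.54 and 2.49 ± 0.72 without tumor 1.

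Enzymes that activated myeloid cells make under interferon gamma had the largest median of the 32 lists in both fits. Of 8 genes for nitric oxide, tryptophan, arginine and itaconate metabolism, 6 were called higher with all tumors and 7 without tumor 1 (medians 3.01 and 2.89). Nos2, the inducible nitric oxide synthase (chr11:78920787-78960254), was at 0.929, 0.776, 2.91 and 1.39 CPM in PBS and at 1.22, 411, 6.56, 213 and 132 CPM in cisplatin+ICB. Tumor 1 was inside the PBS range, tumor 3 was above it by a small step, and the other 3 were far above it. Its log2 fold change was 6.66 ± 1.24 (adjusted p = 0.0121), and 7.09 ± 0.92 without tumor 1. Acod1, which makes itaconate, was at 3.15 ± 1.30 CPM in PBS and at 7.87, 170, 13.8, 165 and 101 CPM in cisplatin+ICB, with no overlap, and rose by 4.86 ± 0.79 (adjusted p = 0.011). Ido1, which breaks down tryptophan, rose by 3.37 ± 0.66 from 0.265 ± 0.106 to 2.77 ± 1.83 CPM. Gch1, which makes a cofactor of nitric oxide synthase, did not pass and changed sign with tumor 1, from 0.34 ± 0.41 to -0.30 ± 0.27.

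Most tested genes of the neutrophil list rose. Of 11 neutrophil genes and attractants, Ly6g and Csf3 did not pass the low-count filter. Of the 9 tested, 8 were called higher with all tumors and 8 without tumor 1 (medians 2.65 and 2.74). In the study, the cell type estimate CIBERSORTx found no neutrophils in the RNA data, while flow cytometry gated them in tumors. Tumor 1 lay above all PBS tumors at 7 of the 9, against 41.8% of all genes tested. S100a9, which with S100a8 forms calprotectin, was at 0.686, 4.59, 0.611 and 0.695 CPM in PBS and at 39.1, 15.4, 5.14, 8.94 and 14.8 CPM in cisplatin+ICB. PBS tumor 2 came near the lowest treated tumor without reaching it. Its log2 fold change was 3.33 ± 0.79 (adjusted p = 0.0239) with all tumors and 2.77 ± 0.75 without tumor 1. S100a8 rose by 3.14 ± 0.66, the attractant Cxcl5 by 2.2 ± 0.55, the chemokine receptor Cxcr2 by 1.98 ± 0.51 and Csf3r, the G-CSF receptor, by 2.65 ± 0.57. Mmp8, the neutrophil collagenase, had 3 counts or fewer in every PBS tumor, at 0 to 0.101 CPM, and 0.904 to 2.77 CPM in the treated tumors, so no fold change is given. The summed level of the 4 neutrophil markers S100a8, S100a9, Csf3r and Cxcr2 was 9.04 to 17.8 CPM in PBS, 69.2 CPM in tumor 1 and 33.9 to 106 CPM in the other 4.

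Some monocyte genes and some of the general macrophage genes rose. Of 8 monocyte genes and attractants, 4 were called higher in both fits (medians 1.30 and 1.13). Chil3, a chitinase-like protein of monocytes and activated macrophages, had the largest rise with all tumors among called genes that averaged 50 counts or more and whose groups were fully apart, from 0.444, 0.776, 0.108 and 0.165 CPM in PBS to 26.6, 74.3, 9.93, 36.0 and 7.70 CPM. Every treated tumor was far above PBS, tumor 1 included, and the log2 fold change was 6.36 ± 1.02 (adjusted p = 0.011). Chil3 has a close relative in the genome, so its count may include reads of that gene. Ly6c2, a surface marker of inflammatory monocytes with similar neighbors, rose by 1.86 ± 0.46, and their attractant Ccl2 by 1.72 ± 0.36, while the receptor Ccr2 did not pass (1.00 ± 0.36, adjusted p = 0.099). Of 13 macrophage genes, 2 were called higher with all tumors, where 4.70% of all genes were. Without tumor 1, 5 were called higher and 1 lower, where 18.2% and 17.1% of all genes were. The medians of the 13 were 0.84 with tumor 1 and 0.77 without it. With the length covariate and tumor 1 left out, 7 of the 13 were higher and 0 lower, where 13.8% and 5.04% of all genes were. Adgre1 (F4/80) rose by 1.51 ± 0.42 and Mertk, a receptor for the uptake of dying cells, by 1.60 ± 0.46. C1qa, a complement component of tissue macrophages (0.72 ± 0.37, adjusted p = 0.248), and Csf1r, the macrophage growth factor receptor (0.21 ± 0.44, adjusted p = 0.857), did not pass. Spp1 (osteopontin) was at 2717 to 3720 CPM in PBS, 4199 CPM in tumor 1 and 842 to 1615 CPM in the other 4, and fell by 1.21 ± 0.33 on the log2 scale without tumor 1.

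Of 11 dendritic cell genes, 2 were called higher with all tumors and 3 without tumor 1 (medians 0.69 and 0.82), where 4.70% and 18.2% of all genes were. Leaving out 1 more tumor besides tumor 1 gave 2 to 6. Itgax (CD11c), which macrophages also carry, rose by 3.04 ± 0.79, and Clec9a, a receptor of cross-presenting dendritic cells, by 1.39 ± 0.40 from 1.36 ± 0.124 to 3.55 ± 2.2 CPM. Xcr1, a chemokine receptor of the same cells, did not pass (0.51 ± 0.41, adjusted p = 0.521). Of 13 IL-1 and TNF pathway genes, 4 were called higher with all tumors and 7 without tumor 1 (medians 1.04 and 1.07). Tnf rose by 2.78 ± 0.53, Il1a by 3.62 ± 0.87 and Il1rn, the natural blocker of the IL-1 receptor, by 2.49 ± 0.48. Il1b did not pass (1.04 ± 0.54, adjusted p = 0.252), and its values of 10.5 to 68.1 CPM spanned the PBS values of 12.3 to 48.9 CPM.

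Markers of whole cell types also differed among the tumors. Ptprc, the pan-leukocyte gene, was at 74.5 to 105 CPM in PBS, 119 CPM in tumor 1 and 139 to 363 CPM in the other 4. The 4 T cell markers Cd3d, Cd3e, Cd3g and Trac, all called higher, summed to 13.3 to 20.2 CPM in PBS, 15.7 CPM in tumor 1 and 27.4 to 197 CPM in the other 4. Of 5 macrophage markers 1 was called higher (1314 to 2033 CPM in PBS, 1631 to 3359 CPM in cisplatin+ICB), and of 4 B cell markers 0 (13.5 to 18.0 and 7.91 to 19.5 CPM). Tissue around the tumor also varied. Skeletal muscle markers summed to 122 to 215 CPM in PBS, 80.7 CPM in tumor 1 and 271 to 1210 CPM in the other 4, with 0 of 9 called. Adipocyte markers summed to 18.3 to 46.4 and 43.3 to 218 CPM, with 0 of 5 called, and erythroid markers to 757 CPM in tumor 1 against 43.9 to 210 CPM in the other 4 and 36.1 to 98.9 CPM in PBS, with 0 of 5 called. Epidermal markers stayed between 0.817 and 5.62 CPM in both groups, with Krt1 and Lor at 3 counts or fewer. The 7 mesothelioma cell markers summed to 4128 to 5673 CPM in PBS, 3133 CPM in tumor 1 and 3412 to 4547 CPM in the other 4, with 1 of 4 tested called higher and Upk3b at 3 counts or fewer. Most of that sum came from Vim and Pdpn, and the 1 called higher was Wt1, which was low in both groups. The sum is therefore not read as a share of tumor cells. The part these tissues had in the differences was not tested.

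**Figure D4:**
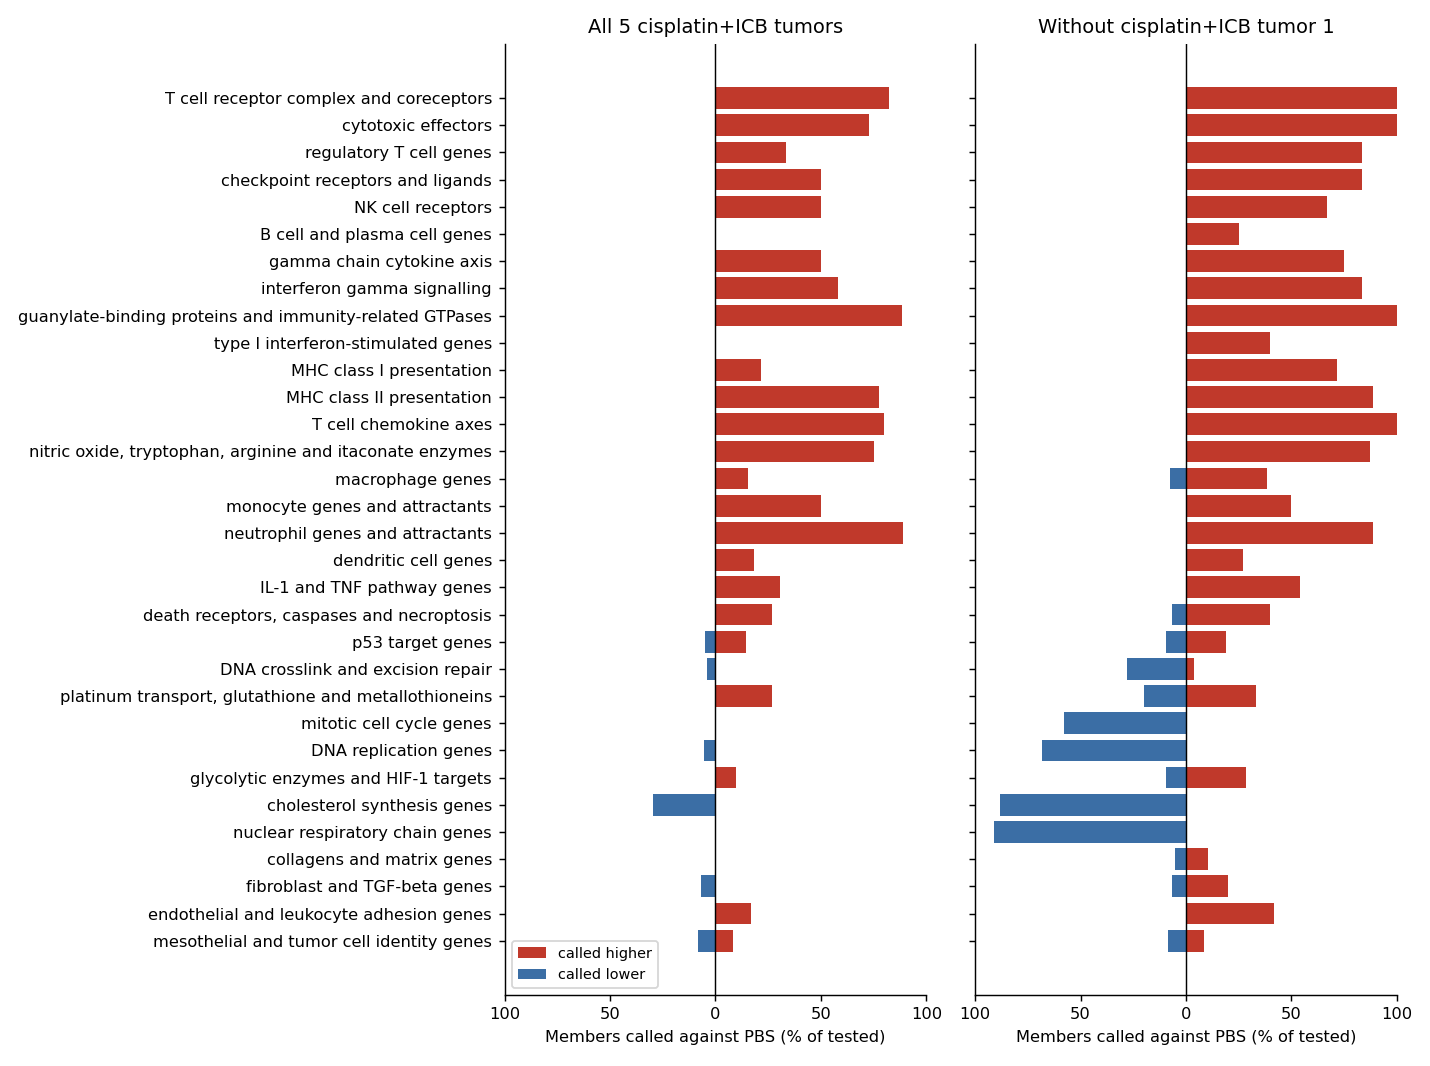
Percent of the tested genes of each of 32 lists that were called higher (right, red) or lower (left, blue) in cisplatin+ICB than in PBS tumors, with all 5 treated tumors and without tumor 1. Lists of T cell, interferon gamma, chemokine and neutrophil genes extend to the right in both panels, and the cholesterol synthesis list extends to the left, with 5 of 17 and 15 of 17 members called lower.

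Among cell death genes a few rose. Of 15 death receptor, caspase and necroptosis genes, 4 were called higher with all tumors, and 6 higher and 1 lower without tumor 1 (medians 0.41 and 0.36). Fas, the death receptor that T cells engage, was at 3.84, 8.23, 3.16 and 3.44 CPM in PBS and at 20.8, 21.8, 7.95, 21.6 and 18.1 CPM in cisplatin+ICB. Tumor 3 was just below PBS tumor 2, and all others were above PBS. Fas rose by 1.95 ± 0.35 (adjusted p = 0.012) and by 1.94 ± 0.38 without tumor 1. Zbp1, a nucleic acid sensor that can start necroptosis, rose by 1.24 ± 0.26, and Casp4, an inflammatory caspase, by 1.19 ± 0.34.

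Of 21 p53 target genes, 3 were called higher and 1 lower with all tumors, and 4 higher and 2 lower without tumor 1 (medians 0.13 and -0.05), where 18.2% of all genes were called higher and 17.1% lower. Cdkn1a, the p21 inhibitor of the cell cycle, was at 143, 155, 128 and 135 CPM in PBS and at 261, 236, 187, 205 and 221 CPM in cisplatin+ICB. All treated tumors were above all PBS tumors within a narrow spread, and the rise was 0.66 ± 0.15 (adjusted p = 0.0221) with all tumors and 0.65 ± 0.15 without tumor 1. Pmaip1 (NOXA), which promotes apoptosis, rose by 1.77 ± 0.39 and Trp53inp1, a stress-induced p53 cofactor, by 0.76 ± 0.21. Plk2, a kinase that is also a p53 target, fell by 0.67 ± 0.17, from 121 ± 3.57 to 76.1 ± 15.4 CPM, with no overlap.

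Of 25 genes of DNA crosslink and excision repair, 1 was called lower with all tumors, and 7 lower and 1 higher without tumor 1 (medians -0.33 and -0.41), where 17.1% of all genes were called lower. With the length covariate and tumor 1 left out, 3 were lower and 0 higher. Leaving out 1 more tumor besides tumor 1 gave 2 to 9 lower and 0 to 3 higher. Fancl, of the Fanconi crosslink repair pathway, was at 65.2 CPM in tumor 1 and 18.7 to 23.4 CPM in the other 4, and fell by 0.90 ± 0.16 without tumor 1. Of 15 tested genes for platinum transport, glutathione and metallothioneins, 4 were called higher with all tumors, and 5 higher and 3 lower without tumor 1 (medians 0.10 and 0.24), or 6 higher and 0 lower with the length covariate. The 4 were Mt2, a metallothionein (1.18 ± 0.24), Hmox1, a heme-degrading stress enzyme (1.73 ± 0.45), Slc7a11, the cystine importer (2.39 ± 0.61), and Slc31a2, a copper transporter (1.42 ± 0.30). Slc31a1, the copper transporter known for cisplatin uptake, did not pass (0.10 ± 0.14, adjusted p = 0.757), with 68.0 ± 7.49 CPM in PBS and 73.0 ± 7.34 CPM in cisplatin+ICB.

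Genes of cholesterol synthesis fell. Of 17 genes, 5 were called lower with all tumors and 15 without tumor 1, 0 were called higher in either fit, and the medians were -0.81 and -1.20. Leaving out 1 more tumor in turn left 14 to 16 called lower. Hmgcs1, an early enzyme of the pathway (chr13:119690379-119708260), was at 213, 176, 248 and 180 CPM in PBS and at 112, 66.7, 138, 69.7 and 67.5 CPM in cisplatin+ICB. There was no overlap between the groups, with tumor 3 highest among the treated tumors, and Hmgcs1 fell by 1.17 ± 0.26 (adjusted p = 0.0193) with all tumors and by 1.20 ± 0.25 without tumor 1. Sqle and Lss, which prepare and close the sterol ring, fell by 1.24 ± 0.34 and 1.19 ± 0.29. Dhcr7, at the last step to cholesterol, fell by 0.81 ± 0.16. Insig1, the feedback brake of the pathway, was at 460 CPM in tumor 1, 50.2 to 123 CPM in the other 4 and 179 to 302 CPM in PBS, and fell by 1.60 ± 0.33 without tumor 1. Cyp51 had the same pattern, with 379 CPM in tumor 1, and Fdps missed the threshold with all tumors (-1.23 ± 0.39, adjusted p = 0.0681). All 5 treated tumors lay below all PBS tumors at 7 of the 17 genes. With transcript length of the library as a covariate, 17 of 17 were called lower, both with all tumors and without tumor 1, where 9.0% and 5.04% of all genes were called lower. A sterol regulatory element core, TCACNCCAC on either strand, was found in 1.22% of all genes with a window and in 1 of the 10 matched genes of the list, Hmgcs1, at chr13:119690194-119690242 on the plus strand, shown with the match in capitals as the one match among these lower genes.
Hmgcs1 SRE: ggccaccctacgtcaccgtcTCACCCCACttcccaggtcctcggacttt

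Cell cycle genes gave 1 call with all tumors and more without tumor 1. Of 19 mitotic genes, 0 were called with all tumors by edgeR, 8 had an unadjusted p under 0.05, DESeq2 called 3 lower, and 11 were called lower by edgeR without tumor 1 (medians -0.55 and -0.77). Of 19 DNA replication genes, 1 was called lower with all tumors and 13 without tumor 1 (medians -0.36 and -0.72). The one was Mcm2, a subunit of the replicative helicase, at 132 to 188 CPM in PBS and 86.2 to 120 CPM in cisplatin+ICB, which fell by 0.65 ± 0.19 (adjusted p = 0.0467). Ccna2, the S phase and mitotic cyclin, missed the threshold with all tumors (-0.80 ± 0.25, adjusted p = 0.0617) and fell by 0.80 ± 0.25 without tumor 1. Ube2c, of the mitotic ubiquitin ligase, likewise fell by 1.02 ± 0.23 without tumor 1. Cdk1, the mitotic kinase, was at 693 CPM in tumor 1, 84.3 to 122 CPM in the other 4 and 180 to 330 CPM in PBS, and fell by 1.29 ± 0.31 without tumor 1. Mki67, a long transcript, ran the other way in tumor 1, with 50.5 CPM against 349 to 555 CPM in the other 4 and 97.4 to 674 CPM in PBS, and did not pass in either fit (-0.09 ± 0.59 and 0.29 ± 0.47). With transcript length of the library as a covariate and all tumors, 13 of the mitotic and 9 of the replication genes were called lower.

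Respiratory chain genes were called only without tumor 1. Of 22 nuclear genes of the respiratory chain, 0 were called with all tumors by edgeR and 0 by DESeq2, and 1 had an unadjusted p under 0.05. Without tumor 1, 20 were called lower, and 12 to 21 when 1 more tumor was left out, with medians of -0.20 and -0.72. Cox4i1, a subunit of cytochrome oxidase, was at 1801 CPM in tumor 1, 215 to 262 CPM in the other 4 and 346 to 736 CPM in PBS. Its log2 fold change was 0.19 ± 0.54 with all tumors and it fell by 0.97 ± 0.26 without tumor 1. Uqcrc1 fell by 0.70 ± 0.14 without tumor 1. Of 21 glycolytic enzymes and HIF-1 targets, 2 were called higher with all tumors, where 4.70% of all genes were. Without tumor 1, 6 were called higher and 2 lower, where 18.2% and 17.1% of all genes were. The medians of the 21 were 0.13 with tumor 1 and -0.12 without it. With the length covariate and tumor 1 left out, 4 were higher and 0 lower, at a median of 0.15. The 2 called with all tumors were the glucose transporter Slc2a1 (0.80 ± 0.23) and the hypoxia-responsive Ndrg1 (0.83 ± 0.21). Hk2, a hexokinase, rose by 1.89 ± 0.41 without tumor 1, where tumor 1 had 5.64 CPM and the other 4 had 52.8 to 150 CPM.

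Transcript length moved with these results. Over the genes tested without tumor 1, the median log2 fold change was -0.37 for transcripts under 0.5 kilobases (688 genes), -0.24 at 0.5 to 1 kilobases, -0.06 at 1 to 2, 0.22 at 2 to 4, 0.45 at 4 to 8 and 0.74 above 8 kilobases (109 genes). With all tumors the same medians lay between -0.04 and 0.48. The 77 cytosolic ribosomal protein genes, which are short and were added to the lists after their values were seen, had 69 called lower without tumor 1 and 0 with all tumors, at medians of -0.81 and 0.06, with 1 gene at an unadjusted p under 0.05 and 0 calls by DESeq2. With the length index of each library as a covariate and tumor 1 left out, 0 of these 77 and 1 of the 22 respiratory chain genes were called lower. The index is computed from the same counts, those of the ribosomal protein genes among them, so part of this loss of calls was built in. Without tumor 1 the index also nearly followed the groups, at 10.319 to 10.36 in cisplatin+ICB and 10.137 to 10.319 in PBS (log2 bases). Treatment and RNA composition therefore cannot be told apart by that fit. In that fit, in which 13.8% of all genes were called higher and 5.04% lower, 7 of 19 replication genes and 6 of 19 mitotic genes were called lower, while 17 of 17 T cell receptor genes, 17 of 17 GBP and immunity-related GTPase genes and 8 of 9 neutrophil genes were called higher. Of the genes named here as called without tumor 1, Foxp3, Oas3, Spp1, Cdk1, Ccna2, Cox4i1, Uqcrc1, Lox, Cav1 and Ppp1r1a were not called in that fit. With the covariate and all tumors, 9.50% of all genes were called higher, among them 10 of 14 class I genes. The part of RNA composition in the falls of the short genes was not tested. Of 15 tested mitochondrially encoded genes, also added after their values were seen, 0 were called with all tumors by edgeR, 6 had an unadjusted p under 0.05, DESeq2 called 2 higher, and 9 were called higher without tumor 1 (medians 0.50 and 0.81), or 3 with the length covariate as well.

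**Figure D5:**
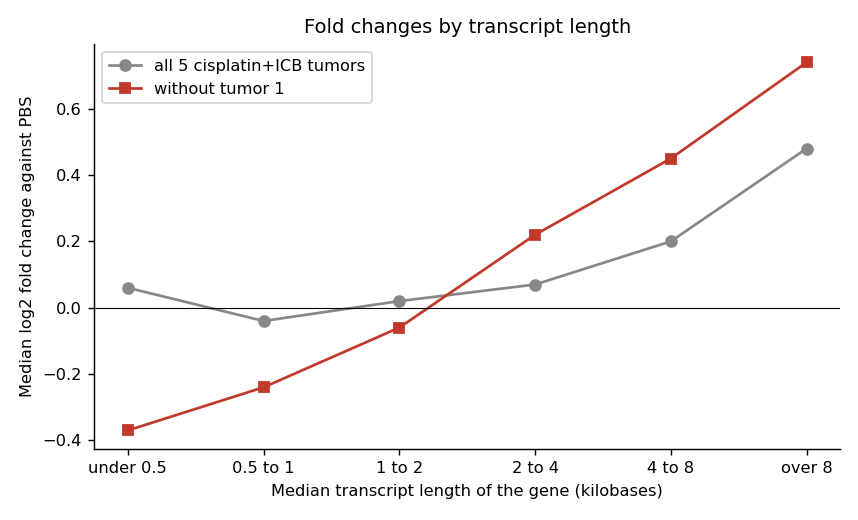
Median log2 fold change of cisplatin+ICB against PBS (y axis) for genes binned by the median length of their transcripts in kilobases (x axis), with all 5 treated tumors (circles) and without tumor 1 (squares). Without tumor 1 the medians climb from -0.37 in the shortest bin to 0.74 in the longest, and with all tumors they lie between -0.04 and 0.48.

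Of 19 collagens and matrix genes, 0 were called with all tumors by edgeR and 0 by DESeq2, and 3 had an unadjusted p under 0.05. Without tumor 1, 2 were called higher and 1 lower, where 18.2% and 17.1% of all genes were. The medians of the 19 were -0.25 with tumor 1 and 0.15 without it. With the length covariate, 9 were called lower with all tumors, and 4 lower and 0 higher without tumor 1, where the median was -0.51. Col1a1, the main fibrillar collagen, was at 55.7 CPM in tumor 1, 1007 to 1252 CPM in the other 4 and 268 to 1842 CPM in PBS, and did not pass in either fit (-0.17 ± 0.65 and 0.25 ± 0.46). Sparc, a matrix protein, fell by 0.96 ± 0.20 without tumor 1, and Lox, a collagen crosslinking enzyme, rose by 0.93 ± 0.35. Of 15 fibroblast and TGF-beta genes, 1 was called lower with all tumors, where 1.40% of all genes were. The one was the growth factor Tgfb3, which fell by 0.79 ± 0.22. Without tumor 1, 3 of the 15 were called higher and 1 lower, beside 18.2% and 17.1% of all genes. Their medians were 0.37 with tumor 1 and 0.56 without it. Leaving out 1 more tumor gave 1 to 4 higher and 0 to 1 lower. Of 12 endothelial and leukocyte adhesion genes, 2 were called higher with all tumors and 5 without tumor 1 (medians 0.33 and 0.53). The 2 were the adhesion receptors for leukocytes, Icam1, which rose by 1.76 ± 0.43 from 23.3 ± 0.320 CPM, and Vcam1, which rose by 1.41 ± 0.35. Of 12 tested mesothelial and tumor cell identity genes, 1 was called higher and 1 lower in both fits, with a median of -0.08 in each (0.01 with all tumors under DESeq2's size factors). Cav1, a membrane scaffold, fell by 0.83 ± 0.21 from 817 ± 74.7 to 461 ± 99.2 CPM. Wt1, a mesothelial transcription factor, rose by 2.83 ± 0.65 but stayed at or below 0.18 CPM in PBS and 1.18 CPM in cisplatin+ICB. Msln, the mesothelin gene, was detected in all tumors, at 270 to 356 CPM in PBS, 656 CPM in tumor 1 and 131 to 266 CPM in the other 4, and did not pass. Upk3b, another mesothelial marker, had 3 counts or fewer in every tumor of both groups.

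The genes with the largest changes among those averaging 50 counts or more, whose groups were fully apart, were drawn from the whole table. With all tumors, 243 higher and 211 lower genes were eligible. After Chil3, the highest were H2-M2, a non-classical class I gene (5.13 ± 1.10), Col6a5, a collagen VI chain (5.10 ± 1.14), and Inpp5j, a phosphoinositide phosphatase (5.03 ± 0.81). Serpinb2, the plasminogen activator inhibitor of activated macrophages, was at 0.444, 1.82, 0.431 and 0.331 CPM in PBS and at 49.99, 28.6, 2.84, 8.97 and 24.2 CPM in cisplatin+ICB, highest in tumor 1, and rose by 4.90 ± 0.94 (adjusted p = 0.0121). Ly6i, a Ly6 family gene with close neighbors (4.89 ± 0.83), Acod1, the coagulation factor F10 (4.51 ± 0.79), Ifng and Slc7a2, an arginine transporter (4.32 ± 0.78), completed the 10. On the lower side the leading gene was Ppp1r1a, a phosphatase inhibitor, at 3.34 to 5.01 CPM in PBS and 0.559 to 1.34 CPM in cisplatin+ICB, which fell by 2.01 ± 0.57. Cyp2s1, a cytochrome P450, fell by 1.91 ± 0.40. Hes1, the Notch target, was at 11.9, 12, 12.8 and 12.7 CPM in PBS and at 7.23, 4.49, 4.76, 4.84 and 4.58 CPM in cisplatin+ICB, where tumor 1 was nearest to PBS without overlap, and fell by 1.25 ± 0.21 (adjusted p = 0.0116) and by 1.34 ± 0.19 without tumor 1.

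Without tumor 1, 1545 higher and 2697 lower genes were eligible, and Nos2 led the higher side. C3, the central complement protein, entered the 10 highest, with 26.6, 54.1, 73.8 and 61.8 CPM in PBS and 2578, 477, 2438 and 1535 CPM in tumors 2 to 5. Tumor 1, at 41.7 CPM, lay inside the PBS range. C3 rose by 5.12 ± 0.71 without it (adjusted p = 0.000527) and by 4.71 ± 0.95 with it (adjusted p = 0.0147). On the lower side, Col10a1, a collagen of hypertrophic cartilage, fell by 3.35 ± 0.84 without tumor 1 and had a log2 fold change of -2.27 ± 0.89 (adjusted p = 0.131) with it. Mgp, an inhibitor of mineralization, fell by 2.30 ± 0.49 without tumor 1, which itself had 564 CPM against 45 to 142 CPM in the other 4 and 240 to 595 CPM in PBS.

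The single treatments place these values. The comparisons use the same cisplatin+ICB tumors, so they are not independent. Against ICB alone (n = 5), edgeR called 0 genes with all tumors and 0 without tumor 1, 2839 and 1634 genes had an unadjusted p under 0.05, and DESeq2 called 52. T cell receptor genes had a median log2 fold change of -0.82 against ICB (-0.57 without tumor 1), GBP and immunity-related GTPase genes -0.64 (-0.35) and class II genes -1.15 (-1.07). Among the medians above ICB were 0.52 (0.42) for p53 targets, 0.75 (0.88) for B cell genes and 0.42 (0.22) for replication genes. Mitotic genes had 0.28 (0.26), repair genes 0.25 (0.28), cholesterol genes 0.26 (0.03) and neutrophil genes 0.19 (0.07). The median of all genes was 0.04 (0.01). With all tumors, edgeR gave 13 of 21 p53 targets an unadjusted p under 0.05 against ICB, counted in either direction. It did so for 8 of 9 class II, 7 of 13 macrophage, 6 of 14 class I and 5 of 11 dendritic cell genes. Over all 17819 genes tested the count was 2839. The macrophage, class I and dendritic cell medians were below ICB, at -0.93, -0.56 and -0.99. Cxcl9 was at 1155 ± 301 CPM in ICB tumors and 626 ± 444 CPM in cisplatin+ICB tumors, and Cd8a at 111 ± 48.6 and 51.0 ± 45.8 CPM. The p that misses the threshold does not show that the combination and ICB were alike.

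Against cisplatin alone (n = 4), edgeR called 0 genes with all tumors, 2530 had an unadjusted p under 0.05 and DESeq2 called 782. Without tumor 1, edgeR called 1477 genes higher, 8.31%, and 637 lower, 3.58%. All 17 T cell receptor genes, 17 of 17 GBP and immunity-related GTPase genes, 9 of 11 cytotoxic genes, 10 of 12 checkpoint genes and 9 of 10 chemokine axis genes were among the higher, and 10 of 17 cholesterol genes among the lower. Nos2 was at 1.89 ± 0.533 CPM in cisplatin tumors, near the PBS level of 1.5 ± 0.98 CPM, and at 321 ± 137 CPM in ICB tumors. Cdkn1a had another order of groups: it was at 210 ± 23 CPM in cisplatin tumors and 222 ± 28.6 CPM in cisplatin+ICB tumors, against 140 ± 11.6 CPM in PBS and 147 ± 21.3 CPM in ICB tumors. Its log2 fold change against cisplatin was 0.08 ± 0.15 (adjusted p = 0.888), and against ICB 0.60 ± 0.14 (adjusted p = 0.291). S100a9 was at 3.83 ± 2.07 CPM in cisplatin tumors and 5.71 ± 4.96 CPM in ICB tumors, and Chil3 at 3.12 ± 1.52 and 12 ± 13.1 CPM, each below the 16.7 ± 13.2 and 30.9 ± 27.0 CPM of the combination. Of these differences of S100a9 and Chil3, with or without tumor 1, only that of Chil3 against cisplatin without tumor 1 passed the test (3.41 ± 0.88, adjusted p = 0.0237).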

How the data were processed

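RNA from 28 whole AB1-HA tumors was sequenced as 100-base single reads, and the 9 PBS and cisplatin+ICB tumors were compared here, within a model of 18 tumors. The submitters' processing notes name bcl2fastq 2.20.0.422, kallisto 0.46.0 and the builds GRCm38 and mm10. The authors assigned reads to transcripts with kallisto, combined transcripts into genes by tximport, and the deposited values are estimated counts per gene without normalization. Of these values 23.73% were not whole, and all were rounded. The methods speak of removing low counts, but 18393 genes were 0 in every tumor. Of the gene names, 55315 were found in GENCODE M21 and 26 had become dates.

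Counts were analysed in R 4.3.3 with edgeR 4.0.16 and limma 3.58.1: filterByExpr by group, TMM, and the quasi-likelihood test in a model of the PBS, ICB, cisplatin and cisplatin+ICB groups, with Benjamini-Hochberg adjustment over all genes tested. Calls needed an adjusted p under 0.05 and a log2 fold change over 0.5 in size, the thresholds of the study's methods. CPM are counts per 1000000 counts of TMM-scaled library size. The study's tool, DESeq2 (1.42.0), was an alternative. Depth was 26836269 to 31291619 counts a tumor, so 3 counts, the floor used, were 0.0886 to 0.1595 CPM in these tumors; the 95% Wilson interval of a share of counts was under 0.03 percentage points wide. These limits cover counting error only. Genes named are members of 32 lists (455 genes, 444 tested), or the 10 most changed called genes on either side that averaged 50 counts or more and whose groups were apart, with and without cisplatin+ICB tumor 1. The comparison, the lists and the naming rule were chosen with earlier results of these data known, and the ribosomal protein and mitochondrially encoded lists after their values were seen.

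Alternatives were DESeq2, its size factors, other filters, other models (2 groups, 6 groups, robust, replicate block), no fold threshold and each tumor left out. DESeq2 against ICB and cisplatin, a length index of each library (count-weighted mean log2 transcript length) as a covariate, and DESeq2, the block and each further tumor left out without tumor 1, were chosen after seeing the data. The fits were tested on simulated data. Some genes of the lists are counted but not reported singly here. The 5-FU tumors were used only in the model of 6 groups. No sequencing batch is given in the labels.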

Additional observations from a re-analysis of the deposited data

Results flagged for a closer look

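A tumor was marked when its distance to the nearest tumor of its group exceeded the 95% limit of Dixon's test, and 37 of 280 groups of values met this. Chance marks about 1 in 20 groups, and values from 1 library are not independent.

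Most marks fell on cisplatin+ICB tumor 1. Its library had 15.36% of counts in ribosomal protein genes, 1.03% in mitochondrially encoded genes, a geometric mean transcript length of 1014 bases, 59.47% of counts from transcripts under 1 kilobase, a TMM factor of 0.6826 and 23534 genes with a count. On the log2 CPM scale it was the highest of its group for Ifngr2 (8.2), Fancl (6.03), Cdk1 (9.44), Cox4i1 (10.81), Uqcrc1 (8.22) and Hes1 (2.87). It was the lowest for Foxp3 (-1.02), Il2ra (2.13), Gbp9 (4.16), Oas3 (0.78), Csf1r (5.77), Trp53inp1 (4.78), Mki67 (5.66) and Col1a1 (5.8).

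Cisplatin+ICB tumor 3 was the lowest of its group for Klrd1 (2.03), Ccl2 (5.86) and Fas (3), and tumor 2 was the highest for Lox (6.58).

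In the PBS group, tumor 2 had 53.32% of counts from transcripts under 1 kilobase and the highest log2 CPM of Cd3d (2.51), S100a9 (2.22), Il1b (5.61), Serpinb2 (0.92) and F10 (1.57). PBS tumor 3 was the lowest for Prf1 (3.01) and Cxcr3 (0.84). PBS tumor 1 was the lowest for Ifng (-1.89) and Wt1 (-3.88), both near the floor of detection. PBS tumor 4 was the lowest for Ly6i (-1.74) and the highest for Trp53inp1 (5.05) and Plk2 (6.98).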

How the results depend on the processing

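The 1087 genes called with all tumors became 2156 with DESeq2, 624 with no low-count filter and 0 in a model of the PBS and cisplatin+ICB tumors alone (smallest adjusted p 0.0972, 3022 genes at an unadjusted p under 0.05, by edgeR), or 5746 there without tumor 1. Leaving out 1 tumor at a time gave 0 (without PBS tumor 1, 3 or 4) to 6277 genes (without cisplatin+ICB tumor 1), and leaving out a further tumor besides cisplatin+ICB tumor 1 gave 4565 to 6889. The length index as a covariate gave 3295 with all tumors and 3344 without tumor 1, and DESeq2 without tumor 1 gave 6867. With the replicate number as a block, 95 genes were called, and 4477 without tumor 1. The numbers did not pair the tumors: deviations of same-numbered tumors correlated at 0.308, -0.488, 0.494 and 0.417, and 2 of 4 correlated best with their own number. Against cisplatin, DESeq2 called 782 and edgeR 2114 without tumor 1, and against ICB DESeq2 called 52, where edgeR called 0. Size factors moved the median log2 fold change of all genes from 0.03 to 0.12 and the share of higher calls from 77% to 86.86%. Over 133 named genes and 30 alternatives, 2914 values kept direction and side of the threshold, 654 lost and 331 gained it, and 78 changed sign. The 8 genes whose sign changed were not called with all tumors. Their values without 1 tumor reached 0.66 for Ncr1, 0.61 for Ifngr2, 0.56 for Gch1, 0.46 for Cox4i1, -0.41 for Mki67 and -0.50 for Col1a1, each without PBS tumor 2, and Cdk1 reached -1.43 without cisplatin+ICB tumor 1 and PBS tumor 3. Without tumor 1, Ifngr2 was at -0.17 (-0.15 in 2 groups alone and by DESeq2, -0.16 with the block, -0.33 to -0.10 with a further tumor left out), Gch1 at -0.30 (-0.28, -0.28, -0.31, and -0.49 to -0.05), and Cox4i1 at -0.97 (-0.95, -0.95, -0.99, and -1.14 to -0.67). Cox4i1 was also at -0.08 with the block on all tumors, and at -0.15 and -0.20 with the length covariate with and without tumor 1. Csf1r was at -0.21 with the length covariate. Ncr1 was at -0.07 to -0.01 without a further tumor, and Cdk1 at 0.03 to 0.05 without 1 tumor. Mki67 was at 0.00 by DESeq2, 0.01 with its size factors and with no filter, 0.10 with 10 counts required, 0.04 in 2 groups alone (0.31 without tumor 1), 0.07 with the block (0.53), 0.29 by DESeq2 without tumor 1, 0.08 to 0.42 without 1 tumor and 0.07 to 0.76 without a further one. Col1a1 was at 0.02 with 10 counts required, 0.27 in 2 groups alone without tumor 1, 0.24 by DESeq2 and 0.27 with the block without tumor 1, 0.06 to 0.25 without 1 tumor and 0.06 to 0.60 without a further one. The causes were not tested. Genes near 0.1 CPM, such as Wt1 and Mmp8 in PBS, rest on a few reads.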
